A study of Homo sapiens with 6 samples.

Results

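The MYC, MAX and MXD network comprises transcription factors that compete for the same DNA element, and its 10 genes MYC, MAX, MNT, MXI1, MXD1, MXD3, MXD4, MLX, MLXIP and MGA were picked by symbol from the 40173 genes of the count table. All 10 were present, all were of the type mRNA, and all passed the filter on low counts. The libraries came from A549, an established human lung adenocarcinoma cell line, harvested the day after transfection with either an siRNA against the long noncoding RNA (lncRNA) FAM83H-AS1 (silenced, n = 3) or a negative control (control, n = 3), with no other agent in either group. Gene counts were from total RNA sequenced on an Ion Proton instrument. Nothing in the labels states that the replicates were separate cultures, so that p-values measure the spread between these libraries, and only one siRNA per group is described. In such bulk RNA, fewer cells with an mRNA and less of it per cell cannot be told apart.

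MYC is an activator that binds DNA as a dimer with MAX, at the E-box CACGTG, and drives genes of ribosome synthesis, nucleotide synthesis, glycolysis and the cell cycle. MXD1, MXI1 (also called MXD2), MXD3, MXD4 and MNT also dimerize with MAX at the E-box, but recruit the SIN3 and histone deacetylase corepressor and repress. MLX is a second shared partner, which pairs with MLXIP (MondoA), a sensor of glucose phosphates, and also with MNT, MXD1 and MXD4, whereas MGA pairs with MAX inside a Polycomb complex, PRC1.6.

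Some network genes and their targets carry the E-box themselves. Promoters in the RefSeq table (GRCh38.p14, 250 bases before to 50 after a gene start) were found for 9 members, MYC having no entry, and CACGTG, which reads the same on both strands, was in 3 of them, MXD4, MNT and MLX. It was in 7.26% of all 35116 promoters of the table and in 12.7% of the 9513 tested genes that could be matched, too few of the 15250 for a comparison across all tested genes, and no other motif was searched. The windows of the 3 members are shown first, to let the same element be seen in a repressor of the MXD family, in MNT and in MLX, and then those of 4 target genes described further on, with the E-box in capitals and each sequence 5′ to 3′ on the strand of the gene:
MXD4 (chr4:2262330-2262359, minus strand): gggccgggccacCACGTGctgttgctaagc
MNT (chr17:2401236-2401265, minus strand): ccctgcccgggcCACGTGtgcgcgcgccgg
MLX (chr17:42567038-42567067, plus strand): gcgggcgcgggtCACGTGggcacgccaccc
ARRDC4 (chr15:97960481-97960510, plus strand): aaacggcctgtgCACGTGcacgccggagcc
HSPD1 (chr2:197500345-197500374, minus strand): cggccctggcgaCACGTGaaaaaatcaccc
NME1 (chr17:51153581-51153608, plus strand): agtgctgcgaacCACGTGggtcccgggc
HK2, first copy (chr2:74834964-74834993, plus strand): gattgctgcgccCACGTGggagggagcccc
HK2, second copy (chr2:74835009-74835038, plus strand): ttccggcgagagCACGTGgagagaatcgtg

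Library totals ranged from 9738291 to 17742643 counts. The targeted lncRNA was checked first. FAM83H-AS1 had 141, 185 and 292 counts in control replicates 1, 2 and 3 but 47, 48 and 75 counts after silencing, a log2 fold change of -1.70 (adjusted p = 7.99e-05 by edgeR, standard error 0.148). Control replicate 3, the deepest library, stood apart with 3.22% of its reads assigned to RNA5-8SP6, an rRNA pseudogene, where every other library had 0.241% to 0.448%. Epithelial markers, led by KRT8, were abundant, with summed levels of 2922 to 3444 CPM (gene counts relative to the normalized library total) in the control and 2581 to 2619 CPM in the silenced libraries. The 5 aldo-keto reductase and aldehyde dehydrogenase genes known from A549, led by AKR1C1, summed to 98.9 to 171 CPM in the control and 131 to 146 CPM in the silenced libraries. Most of this was AKR1C1, at a mean of 101 CPM over all libraries. The 4 leukocyte markers summed to between 1.03 and 2.30 CPM in all libraries, with CD3E at 0. The 3 endothelial markers summed to 4.41 to 6.37 CPM in the control and 3.78 to 4.15 CPM in the silenced libraries. The 4 fibroblast markers summed to 26.2 to 29.7 CPM and 28.9 to 38.3 CPM, mostly COL1A1. The part of the lower epithelial sum in the results was not tested.

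A pair of opposed members passed the test after FAM83H-AS1 silencing: MYC, the activator, fell, and MXI1, a MAX-binding antagonist, rose. These were 2 of 10 members (20.0%), beside 17.0% of all 15250 tested genes at an adjusted p under 0.05 by edgeR. The share of the members is thus near the background, and no fit with 1 library left out called both MYC and MXI1. The 17.0%, here and for the lists below, covers mRNA and noncoding rows together. With mRNA rows only, 2850 of 12258 genes and 3 members were called, MXD3 besides MYC and MXI1. In single directions, 8.75% of all tested genes were higher and 8.27% were lower, that is 1334 and 1261 genes, compared with 1555 and 991 genes when scaled by library size only. No member passed the fold change of 2 that the study's methods also ask for, which 2.14% of tested genes did with an adjusted p under 0.05. The libraries of the groups did not overlap for 4 members, MYC, MXI1, MXD3 and MXD4, a share of the 10 that stands beside 36.6% of all tested genes. The median log2 fold change was 0.04 over the members and -0.00067 over all tested genes.

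MYC lies in 8q24, the region that also holds FAM83H-AS1, and the study examined whether its level depended on the lncRNA. MYC was the most abundant member. Its levels in control replicates 1, 2 and 3 were 290, 253 and 265 CPM, and in silenced replicates 1, 2 and 3 they were 241, 208 and 210 CPM. The groups did not overlap, though the highest silenced and the lowest control library were close, and p was 0.1 in an exact two-sided permutation test, the lower limit for 3 against 3 libraries. MYC thus fell from 269 ± 19.0 to 220 ± 18.6 CPM (SD, n = 3 each), by 18.4%, with a log2 fold change of -0.29 (standard error 0.0826, 95% interval -0.47 to -0.11, adjusted p = 0.0334 by edgeR). The call is a narrow one. Of 13 alternatives, 8 kept it and 5 lost it. Where it was kept, the adjusted p lay between 0.00409 (edgeR, genes with at least 1 count) and 0.0449 (edgeR, without control replicate 2). Without control replicates 1 and 3 the adjusted p by edgeR was 0.0980 and 0.0565. Without silenced replicates 2 and 3 it was 0.0921 and 0.0953, and when scaled by library size only it was 0.0589. The log2 fold changes lay between -0.36 and -0.24 over all alternatives.

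**Figure D1:**
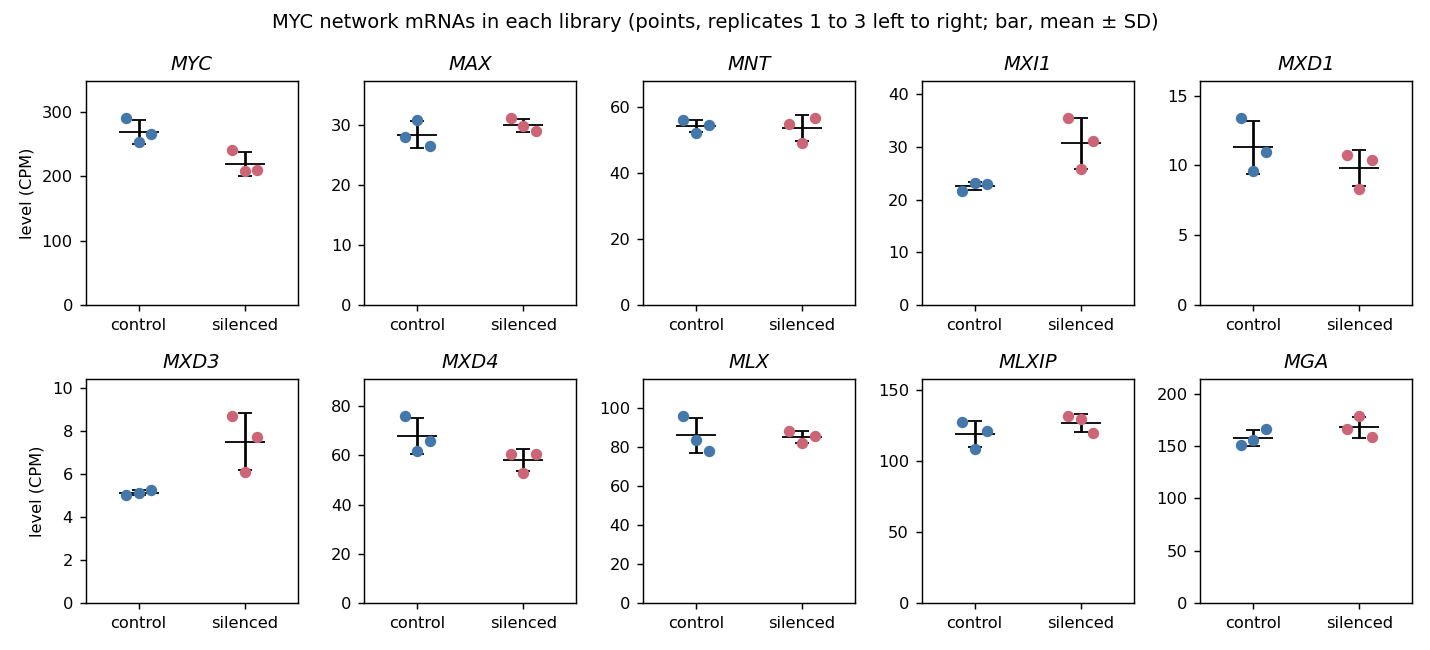
Levels of the 10 network mRNAs in CPM (y axis, from 0) in the 3 control and 3 silenced libraries (points), with the mean and SD of each group as black bars. MYC and MXD4 lie lower and MXI1 and MXD3 lie higher in all silenced libraries, whereas MAX, MNT, MXD1, MLX, MLXIP and MGA overlap between the groups.

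MAX, the partner that MYC and its antagonists share, stayed within the spread of its libraries. MAX was at 28.1, 30.8 and 26.5 CPM in control replicates 1, 2 and 3 and at 31.1, 30.0 and 28.99 CPM in the silenced replicates, and the groups overlapped. The log2 fold change was 0.08 (95% interval -0.12 to 0.28, adjusted p = 0.594 by edgeR), so that changes within that interval are not excluded.

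Among the MXD repressors, MXI1 and MXD3 had higher and MXD4 and MXD1 lower means in the silenced cells. MXI1, whose promoters in the RefSeq table lack CACGTG, was at 21.7, 23.1 and 22.9 CPM in control replicates 1, 2 and 3 and at 35.3, 25.7 and 31.0 CPM in silenced replicates 1, 2 and 3. The control libraries were tightly grouped, the silenced ones spread widely, and the groups did not overlap. MXI1 rose from 22.6 ± 0.774 to 30.7 ± 4.83 CPM (SD, n = 3 each), with a log2 fold change of 0.44 (standard error 0.117, 95% interval 0.18 to 0.70, adjusted p = 0.0266 by edgeR). The call was kept without silenced replicate 2 (0.55, adjusted p = 0.00610 by edgeR) but was lost without any other single library. Without control replicates 1, 2 and 3 the adjusted p of MXI1 by edgeR was 0.0708, 0.0658 and 0.0613, and without silenced replicates 1 and 3 it was 0.116 and 0.0630.

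MXD3, a family member linked to proliferating cells, had the largest log2 fold change of the members, at the lowest level. Its counts were 49, 59 and 89 in control replicates 1, 2 and 3 and 89, 66 and 104 after silencing. Its levels were 5.04, 5.10 and 5.26 CPM in the control and 8.69, 6.10 and 7.73 CPM in the silenced libraries, and the groups did not overlap. The log2 fold change of 0.55 (95% interval 0.15 to 0.94) did not pass the adjustment (adjusted p = 0.0590 by edgeR), and the adjusted p was between 0.0368 and 0.209 over the alternatives. The exons of MXD3 share 22.5% of their bases with PRELID1, on the opposite strand, and 17.97% with RAB24, on the same strand, in GENCODE 29. PRELID1 had 1591 to 2968 counts per library and RAB24 had 187 to 305. Their log2 fold changes were -0.15 (adjusted p = 0.162 by edgeR) and 0.02 (adjusted p = 0.940 by edgeR). How reads of overlapping genes were counted is not given in the sources used here, so that the level of MXD3 is uncertain.

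MXD4, the MXD gene with the highest level, was at 76.0, 61.8 and 65.7 CPM in control replicates 1, 2 and 3 and at 60.7, 52.8 and 60.4 CPM in the silenced replicates. Its groups did not overlap, but by a narrow margin, and the log2 fold change of -0.22 (95% interval -0.43 to -0.01) did not pass the adjustment (adjusted p = 0.131 by edgeR). MXD1, a repressor known from differentiating cells, lay between 9.59 and 13.4 CPM in the control and between 8.32 and 10.7 CPM in the silenced libraries, with a log2 fold change of -0.19 (95% interval -0.55 to 0.16, adjusted p = 0.442 by edgeR). MNT, the broadly expressed repressor of the network, differed by less than its replicates did. It lay between 52.2 and 55.9 CPM in the control and between 49.1 and 56.5 CPM in the silenced libraries, with a log2 fold change of -0.02 (95% interval -0.19 to 0.16, adjusted p = 0.908 by edgeR). Scaled by library size only, the value of MNT was 0.017.

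**Figure D2:**
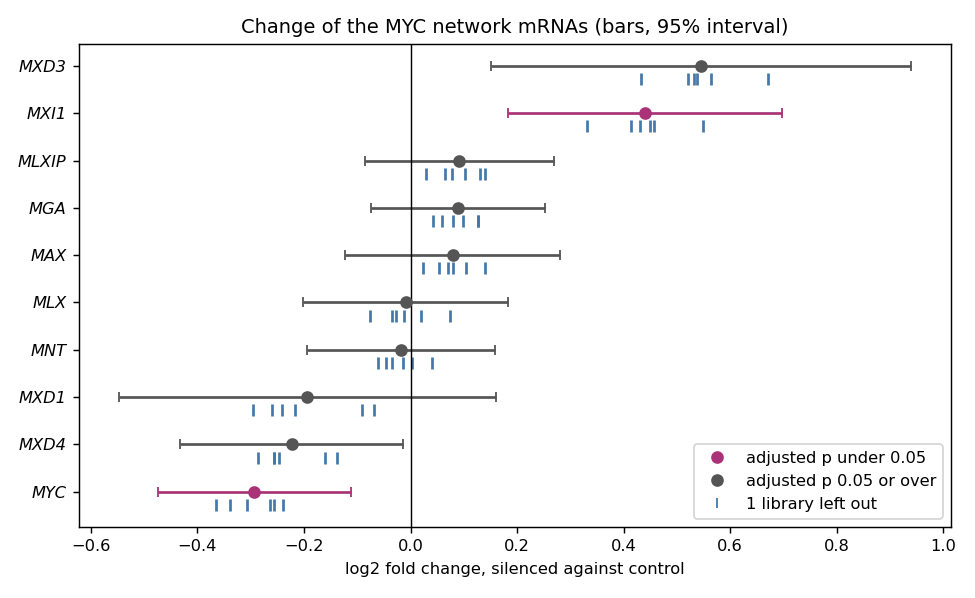
Log2 fold change of each network mRNA, silenced against control (x axis), with its 95% interval, ordered by value. Purple points (MYC at -0.29 and MXI1 at 0.44) had an adjusted p under 0.05 by edgeR, grey points did not, and the blue ticks are the values with 1 library left out.

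The MLX branch and MGA did not pass the test. MLX lay between 78.2 and 95.9 CPM in the control and between 81.9 and 88.4 CPM in the silenced libraries (log2 fold change -0.01, 95% interval -0.20 to 0.18, adjusted p = 0.962 by edgeR), and its value was 0.024 when scaled by library size only. MLX shares 18.1% of its exon bases with PSMC3IP on the opposite strand, which had 468 to 647 counts per library. MLXIP lay between 109 and 127 CPM in the control and between 120 and 132 CPM in the silenced libraries (0.09, 95% interval -0.09 to 0.27, adjusted p = 0.470 by edgeR). MGA lay between 151 and 166 CPM and between 159 and 179 CPM (0.09, 95% interval -0.07 to 0.25, adjusted p = 0.442 by edgeR). For MLX, MLXIP and MGA the libraries of the groups overlapped.

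Per length, as CPM per kb of the union of the gene's annotated exons in GENCODE 29, the members could be ordered by level in the control cells. This union can be longer than any 1 mRNA of the gene. The order and the ratios below depend on it, and no other length was tried. MYC was highest at 89.7 ± 6.33 CPM per kb (SD, n = 3), above MLX at 20.2 ± 2.13 CPM per kb. MXD4 (9.61), MGA (8.94) and MLXIP (8.55 CPM per kb) followed, each overlapping its neighbour across the control libraries. MAX (6.42) and MNT (6.21 CPM per kb) overlapped as well, and were followed by MXI1 (4.90), MXD1 (1.78) and MXD3 (0.996 CPM per kb), which did not overlap their neighbours. The mRNA of MAX was thus present at a lower level per length than that of MYC in every library.

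The ratio of MYC to MAX on this scale was 15.2, 12.1 and 14.8 in the control and 11.4, 10.2 and 10.7 in the silenced libraries. The ratio of MYC to MXI1 was 20.5, 16.8 and 17.8 in the control and 10.5, 12.4 and 10.4 in the silenced libraries. Both ratios were lower in every silenced library. Over the sum of MXD1, MXI1, MXD3, MXD4 and MNT, MYC stood at 3.87, 3.78 and 3.80 in the control and at 3.10, 3.27 and 2.81 in the silenced libraries, without overlap. The sum itself overlapped, at 22.2 to 25.0 CPM per kb in the control and 21.2 to 25.9 CPM per kb in the silenced libraries. The ratio of MYC to MXD4, both of which had lower means after silencing, overlapped between the groups, at 8.97 to 9.62 and 8.18 to 9.34. These ratios were formed from member values already known and are given without a test.

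**Figure D3:**
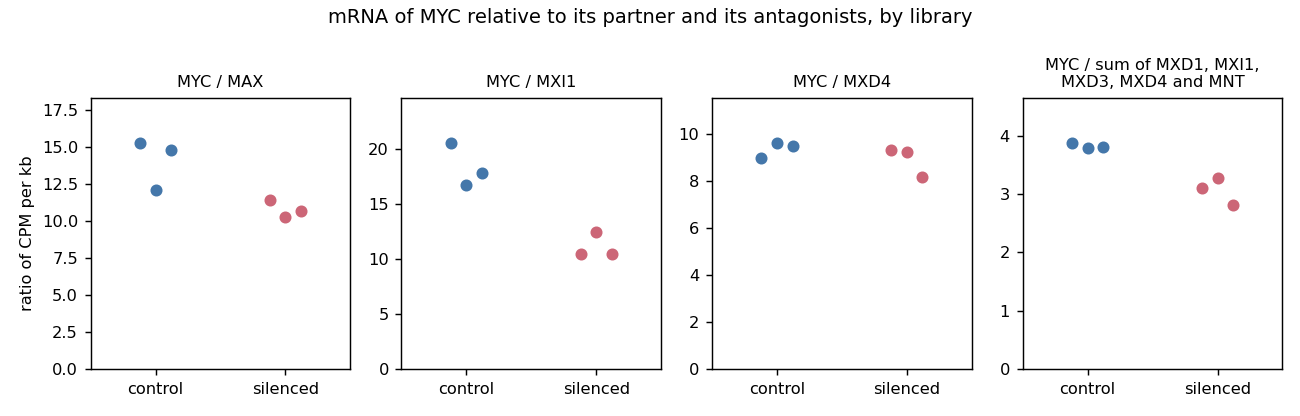
Ratio of MYC to MAX, to MXI1, to MXD4 and to the summed MXD genes and MNT, as ratios of CPM per kb (y axis, from 0), in the 3 control and 3 silenced libraries (points). All but the ratio to MXD4 are lower in every silenced library.

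Of the remaining factors of the network, MYCN and MYCL, the relatives of MYC, had at most 13 counts in a library and were below the filter. MLXIPL (ChREBP), the relative of MLXIP, had a log2 fold change of -0.23 (adjusted p = 0.284 by edgeR). Among 7 genes around MYC in 8q24, only PVT1 and CCAT1, both noncoding, passed the filter. PVT1 was at 28.96 ± 2.08 and 32.7 ± 1.02 CPM (SD, n = 3 each), with a log2 fold change of 0.17 (adjusted p = 0.215 by edgeR), and CCAT1, named because only 2 passed, had a log2 fold change of 0.01 (adjusted p = 0.951 by edgeR). The value of CASC11 was 0 to 4 counts per library.

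The corepressor that the MXD proteins and MNT recruit was represented by 15 genes of SIN3 and its histone deacetylases. By edgeR, 1 was higher, 1 was lower and 13 did not pass, so that 13.3% were called beside 17.0% of all tested genes, and the median log2 fold change was 0.00045. ARID4B, a subunit of the SIN3 complex, rose (0.42, adjusted p = 0.00627 by edgeR). RBBP4, a histone chaperone with 6 annotated pseudogenes, fell (-0.25, adjusted p = 0.0449 by edgeR) and lost the call when scaled by library size only (adjusted p = 0.0902) and without any 1 library other than silenced replicate 2. The count of 2 was between 1 and 5 over the alternatives.

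Of 18 genes for cofactors of MYC, 4 fell, none rose and 14 did not pass, with a median of -0.05. Those that fell were KAT2A (-0.45, adjusted p = 0.00575 by edgeR), a histone acetyltransferase, and RUVBL1 (-0.36, adjusted p = 0.0122 by edgeR), an ATPase of chromatin complexes. The others were WDR5 (-0.29, adjusted p = 0.0206 by edgeR), which docks MYC on chromatin, and SMARCB1 (-0.48, adjusted p = 0.0419 by edgeR), a SWI/SNF subunit that binds MYC. These 22.2% of the list compare with the background of 17.0% of all tested genes. With mRNA rows only, 4 of the list and 2850 of 12258 genes were called. Without control replicate 2 or control replicate 3, KAT2A and RUVBL1 alone were called, and without silenced replicate 1 only KAT2A was. WDR5 kept its call only without control replicate 1 or silenced replicate 2, and SMARCB1 only without silenced replicate 3.

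Of 14 tested genes for the turnover of MYC protein, 2 rose, 2 fell and 10 did not pass (28.6% called, beside 17.0% of all tested genes), with a median of -0.03. HUWE1, a ubiquitin ligase with MYC among its substrates, was at 1690, 1820 and 2126 CPM in control replicates 1, 2 and 3 and at 1226, 1231 and 1221 CPM in the silenced replicates. All silenced libraries lay far below the control libraries, with a log2 fold change of -0.62 (adjusted p = 0.00124 by edgeR, standard error 0.0861). STUB1, another ubiquitin ligase, also fell (-0.31, adjusted p = 0.0434 by edgeR), while USP36, a nucleolar deubiquitinase (0.26, adjusted p = 0.0337 by edgeR), and FBXO28, an F-box protein (0.40, adjusted p = 0.0395 by edgeR), rose. HUWE1 alone was called without control replicate 1, control replicate 2 or silenced replicate 1, and HUWE1 and FBXO28 without silenced replicate 3. FBXO28 was lost without control replicate 3, and both FBXO28 and STUB1 without silenced replicate 2.

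Of 14 genes of PRC1.6, the complex that holds MGA, 1 rose, 2 fell and 11 did not pass (21.4% called, beside 17.0% of all tested genes), with a median of -0.15. RYBP, a Polycomb subunit, rose from 33.3 ± 1.81 to 48.2 ± 4.89 CPM (SD, n = 3 each; 0.53, adjusted p = 0.00428 by edgeR). L3MBTL2, a subunit particular to this complex, fell (-0.31, adjusted p = 0.0169 by edgeR), as did WDR5, which is also counted among the cofactors. Without control replicate 3, RYBP alone was called.

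**Figure D4:**
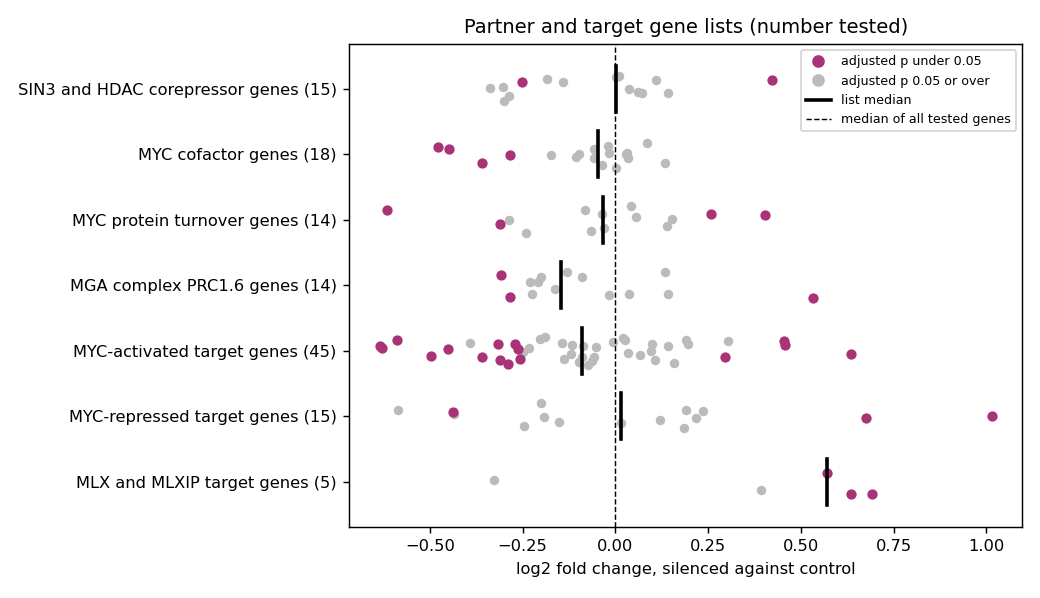
Log2 fold changes, silenced against control (x axis), of the tested genes of each partner and target list, with the number tested in brackets. Purple points had an adjusted p under 0.05 by edgeR, black bars are list medians, and the dashed line is the median of all tested genes, near 0.

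Targets of MYC moved in both directions. Of 45 genes that MYC is known to activate, 12 fell, 4 rose and 29 did not pass, together 35.6% beside 17.0% of all tested genes, and the median was -0.09. This list, like the others, was written with earlier results of these data known, so that its share is no test of MYC targets. The balance depended on the scaling, since 7 were lower and 5 higher when scaled by library size only. HSPD1, a mitochondrial chaperonin with 17 annotated pseudogenes that may share its reads, was at 571, 681 and 638 CPM in the control and at 386, 418 and 418 CPM in the silenced libraries (-0.63, adjusted p = 7.32e-04 by edgeR). NME1, a nucleoside diphosphate kinase, was at 248, 214 and 201 CPM and at 141, 131 and 154 CPM (-0.63, adjusted p = 0.00162 by edgeR). Neither gene overlapped between the groups, and both carry the E-box shown above. Of the other called genes named here, HK2 and USP36, which rose, and RBBP4 and WDR5, which fell, carry it too. NOP16 (-0.59, adjusted p = 0.00245 by edgeR) and NOP56 (-0.50, adjusted p = 0.00305 by edgeR), both nucleolar proteins of ribosome synthesis, fell as well.

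The 4 activated targets that rose, named after their values had been seen, were CDC25A (0.46, adjusted p = 0.00365 by edgeR) and E2F1 (0.30, adjusted p = 0.0291 by edgeR), which act at the entry to S phase, and the glucose transporter SLC2A1 (0.45, adjusted p = 0.00950 by edgeR) and the hexokinase HK2 (0.64, adjusted p = 0.00994 by edgeR). CDC25A and HK2 were called with any 1 library left out, SLC2A1 was lost without silenced replicate 1, and E2F1 was lost in all such fits but those without control replicate 1 or silenced replicate 2. With 1 library left out, fewer of the 45 were called: 10 without control replicate 1, 10 without control replicate 3, 6 without silenced replicate 1 (4 lower and 2 higher), 10 without silenced replicate 2 and 9 without silenced replicate 3. Over all tested genes, between 1225 and 1962 were called in these fits, compared with 2595 with all libraries. CACGTG was in the promoters of 18 of the 38 activated targets with an entry.

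Of 15 genes that MYC is known to repress, 2 rose, 1 fell and 12 did not pass (20.0% called, beside 17.0% of all tested genes), with a median of 0.01. DDIT3, a transcription factor of the stress response, rose from 26.0 ± 4.93 to 52.9 ± 4.91 CPM (SD, n = 3 each; 1.01, adjusted p = 7.32e-04 by edgeR). CDKN1A, the cell cycle inhibitor p21, rose from 72.5 ± 3.72 to 116 ± 15.9 CPM (SD, n = 3 each; 0.68, adjusted p = 0.00180 by edgeR). THBS1, a matrix protein, fell (-0.44, adjusted p = 0.0278 by edgeR), a call that was lost without control replicate 2 (0.0720), control replicate 3 (0.0868), silenced replicate 1 (0.110) or silenced replicate 3 (0.0726).

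Of the 5 tested targets of MLX and MLXIP, 3 rose, none fell and 2 did not pass (60.0% called, beside 17.0% of all tested genes), with a median of 0.57. The share rests on 5 genes. The list was written with earlier results of these data known, so that the share is no test of these targets. TXNIP, an inhibitor of glucose uptake, was at 96.0, 120 and 124 CPM in control replicates 1, 2 and 3 and at 167, 203 and 180 CPM in the silenced replicates. All silenced libraries lay above all control libraries, with a log2 fold change of 0.69 (adjusted p = 0.00197 by edgeR, standard error 0.106). KLF10, a transcription factor (0.57, adjusted p = 0.00350 by edgeR), rose, and so did HK2, which is also counted among the activated targets of MYC. ARRDC4, an arrestin close to TXNIP in function, was at 9.66, 12.01 and 13.95 CPM in the control and at 13.8, 18.7 and 14.9 CPM in the silenced libraries, which overlapped, with a log2 fold change of 0.39 (adjusted p = 0.117 by edgeR). The other gene that did not pass, PFKFB3, a regulator of glycolysis, had a log2 fold change of -0.33 (adjusted p = 0.0509 by edgeR). PFKFB3 was called lower without control replicate 3, with DESeq2, with either other filter on low counts, with the replicate block and among mRNA rows only. TXNIP, KLF10 and HK2 were called with any 1 library left out, while the mRNAs of MLX and MLXIP themselves stayed within the spread of their libraries. Of the 6 listed targets, 5 had a promoter entry, and CACGTG was in 3 of these, ARRDC4, HK2 and PFKFB3. Of the called targets in this list, it was thus found in HK2 only.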

How the data were processed

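RNA-Seq libraries were made from total RNA of A549 cells with an Ion Proton kit, 3 control and 3 silenced. The authors mapped reads and counted them per gene with MapSplice, on GRCh37 per the submitters' processing notes; annotation, strand and multi-mapping rules are not given in the sources used here. The deposited counts are raw, for 40173 genes, of which 14309 had no count in any library. They were tested with edgeR 4.0.16 in R 4.3.3 (filterByExpr, TMM, quasi-likelihood F test, silenced against control) with Benjamini-Hochberg adjustment over 15250 genes. The fit had first been tested on simulated data, where it missed some 2-fold changes of genes under 5 CPM. Only 2-fold changes were simulated, so smaller ones were not covered, and the pass criterion was changed after a first result was seen. The standard error was taken from F, as the size of the log2 fold change over its square root. Levels are CPM of the TMM-normalized library. Exon lengths and overlaps came from GENCODE 29 and promoters from RefSeq, both GRCh38, matched by symbol only. Exact permutation tests used scipy 1.17.1. Named by rule were all members and FAM83H-AS1, of each list at most 4 genes with the smallest adjusted p under 0.05, and TXNIP, ARRDC4, PVT1, MYCN, MYCL and MLXIPL. Chosen for naming after their values were seen were CDC25A, E2F1, SLC2A1, PFKFB3, CCAT1 and CASC11, and HK2 among the activated targets. Members and lists were chosen with earlier results of these data known. Alternatives were DESeq2 1.42.0, RLE, library size only, genes with at least 1 count, no library under 10 counts, a block for replicate number, mRNA rows only, and each library left out. No set test was run.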

Additional observations from a re-analysis of the deposited data

How the results depend on the processing

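The fall of FAM83H-AS1 kept its direction and its call in all 12 alternatives that tested it, between -1.82 and -1.64. Of the members, 2 were called. With 1 library left out 0 to 2 were, and MYC and MXI1 were not called together in any such fit. Without silenced replicate 2 the called members were MXD3 and MXI1. MNT and MLX, never called, changed sign when scaled by library size only (0.017 and 0.024). Their values ranged from -0.062 to 0.039 and from -0.076 to 0.074 with 1 library left out. Among all tested genes, 1225 to 1962 were called with 1 library left out instead of 2595. With a fold change over 2 as well, 326 were called, 200 to 335 with 1 library left out, 583 of all genes with at least 1 count and 199 of genes with no library under 10 counts. The SIN3 and HDAC genes called numbered 4 with DESeq2, 1 with library size only, 5 with at least 1 count, 4 with at least 10 counts, 5 with mRNA rows only and 1 to 2 with 1 library left out. With 1 library left out, 1 to 3 cofactor, 1 to 3 turnover, 1 to 3 PRC1.6 and 6 to 13 activated target genes were called. The cause was not tested; fewer libraries in a fit lower its power by construction. Among the alternatives for the members and the list genes named by the rule, 398 kept the direction and the outcome, called or not called. These include alternatives for genes that were not called with all libraries in the main fit. Another 46 lost the call, 4 gained it and 6, the values of MNT and MLX, changed sign.

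Same-numbered control and silenced libraries had correlated deviations from the group means (r = 0.124, 0.149 and 0.067 across genes), each library correlating best with its own number, a hint from the data and not from the design. One pair was under 0.1, and the main fit took the libraries to share only a number. These values do not settle whether they shared more, and the p-values of the main fit take no account of it. With the replicate block, 3449 of 15250 tested genes were called, compared with 2595 without it, so that calls rose across all genes. Among them were 3 members, MXD4 included (-0.22, adjusted p = 0.0475 by edgeR), 5 SIN3 and HDAC genes and 6 repressed targets. The low counts of MXD3, 49 to 104 per library, limit its precision.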

Other observations

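The sequence CCAATAA in the 3′-UTR, noticed in these data before as going with lower levels, was searched in the members. Among the tested mRNAs with an annotated 3′-UTR in GENCODE 29, the median log2 fold change was -0.08 for the 1470 with it and 0.01 for the 10069 without it. Since the sequence was picked from these same data, the difference is no test of it, and the sets were not matched for 3′-UTR length. Of the 10 members, MXD1 and MGA held 1 copy each, with log2 fold changes of -0.19 and 0.09, neither called. MYC, whose longest annotated 3′-UTR has 476 bases, and MXD4 held none.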
